A study of Mus musculus with 24 samples.

Results

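Transcripts of 35 genes of the cell division cycle were followed across 24 RNA sequencing libraries of sorted mouse intestinal stroma. The 35 genes were taken by symbol from a table of 54418 genes. All 35 were found and all 35 were abundant enough to be among the 19050 genes tested. They comprise the D-type cyclins Ccnd1 and Ccnd2, the G1/S regulators Ccne1, Ccne2 and E2f1, 9 genes of replication licensing and DNA synthesis, and 21 genes of the S/G2 and mitotic programme. The libraries came from small intestine or colon, with 3 libraries in each of 8 groups. Within each tissue the groups were CD31- Rspo3-, CD31- Rspo3+, CD31+ Rspo3- and CD31+ Rspo3+ cells. CD31 is the endothelial surface protein encoded by Pecam1, and the Rspo3 sign is that of a GFP transgene that reports Rspo3, the gene of a secreted Wnt-signal amplifier. Cells of every group were Epcam- and CD45-, so that sorting was directed away from epithelium and leukocytes. All mice were 8 to 12 weeks old on a C57Bl6 background, and no group had any further treatment or deletion in the labels. The labels do not say what drives the transgene, how many animals were used or whether animals were pooled. The p-values below therefore describe the spread among libraries within groups, and that spread may be technical. It was estimated jointly over all 8 groups, except where a fit of only the libraries compared is named.

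The libraries held 8462041 to 29214487 estimated counts (median 17881736), and levels are given as CPM (counts scaled to library size) with TMM scaling, or as TPM, which also corrects for transcript length, where genes are compared with each other. Pecam1 ran from 8.18 to 43.9 CPM in the 12 CD31- libraries and from 347 to 1486 CPM in the 12 CD31+ libraries. Rspo3 ran from 11.1 to 24.1 CPM in the 12 Rspo3- libraries and from 139 to 449.9 CPM in the 12 Rspo3+ libraries. The groups differ widely in the cell types they hold. Summed markers of lymphatic endothelium were 31527 to 35382 CPM in the small intestinal and 40798 to 51430.4 CPM in the colonic CD31+ Rspo3+ libraries, against 3339.6 to 6241 and 2079.5 to 2556 CPM in CD31+ Rspo3- libraries. Summed blood endothelial markers ran the other way, at 405 to 443 and 575 to 952 CPM against 11719 to 15599 and 14332 to 19105 CPM. Epithelial markers summed to 5852 to 9731 CPM in the small intestinal CD31- Rspo3- libraries although the sort was Epcam-, and Epcam itself was 594, 686 and 1069 CPM there. In bulk libraries, fewer cells of a type and less RNA per cell cannot be told apart.

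Library 3 of the colonic CD31- Rspo3+ group stood apart from its 2 partners. Its summed plasma cell markers were 30276 CPM against 2078 and 1736 CPM, its leukocyte markers 2403 against 166 and 110.2 CPM, and its epithelial markers 2733 against 283 and 61.7 CPM, while its fibroblast markers were lower, at 36575 against 65351 and 66696 CPM. Ptprc, which encodes CD45, was 72.8 CPM in it against 3.71 and 2.76 CPM. All 21 mitotic genes were highest in that library within the group. Results that rest on this library are given with and without it, and the part of the plasma cell, leukocyte and epithelial RNA in them was not tested.

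The cell cycle genes divide by the phase in which their products act. D-type cyclins are induced by growth signals and activate Cdk4 and Cdk6, which inactivate the retinoblastoma family and free E2F factors to switch on cyclin E and the replication genes. Mitotic genes come on later, when the DREAM repressor complex and its partner B-Myb exchange at promoters that carry a cell cycle homology region (CHR), often with CCAAT boxes. Most intestinal stromal and endothelial cells of an adult mouse are known to divide rarely. Epithelial crypt cells, which the sort was directed away from, divide often, and epithelial RNA remained in some libraries as given above.

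Promoter sequences were compared because replication and mitotic genes differed in how they varied between groups. RefSeq (GRCm38.p6) gave promoter windows, from 250 bases before to 50 bases after a transcript start, for 26 of the 35 genes (27 windows). Ccnd1, Ccnd2, Ccne2, Mcm4, Ccna2, Cdc25c, Aurkb, Kif20a and Tpx2 had no entry. Windows were searched on both strands for a CHR, spelled TTTGAA or, in the form that reads the same on both strands, TTTAAA. The CCAAT box was searched by its 5 letters. An E2F site was spelled TTTCCCGC, TTTCGCGC, TTTGCCGC or TTTGGCGC, and its matches on opposite strands can overlap each other. A CHR was found in 15 of the 16 windows of mitotic genes and in 3 of the 9 windows of replication genes, against 27.6% of all 32851 windows. CCAAT boxes were found in 15 of 16 and 8 of 9, against 37.4% of all windows. An E2F site was found in 1 of 16 and 4 of 9, against 2.26% of all windows. A match describes letters in a window and is not a mapped site.

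Promoters are printed for 6 genes that passed in some comparison below. Not all of those calls held when single libraries were left out. The 250 bases before the start of these 6 genes are given 5′ to 3′ on the gene's strand, with the matches in capitals. They are Mcm6 (chr1:128359706-128359955, minus strand) and Pcna (chr2:132253181-132253430, minus strand) for replication, and Cenpa (chr5:30666636-30666885, plus strand), Kif11 (chr19:37376132-37376381, plus strand), Mki67 (chr7:135716380-135716629, minus strand) and Cdc20 (chr4:118437344-118437593, minus strand) for mitosis. Mcm6 holds E2F matches and CCAAT boxes without a CHR, Pcna a single CCAAT box, and the 4 mitotic genes at least 1 CHR and 1 CCAAT box each.
Mcm6: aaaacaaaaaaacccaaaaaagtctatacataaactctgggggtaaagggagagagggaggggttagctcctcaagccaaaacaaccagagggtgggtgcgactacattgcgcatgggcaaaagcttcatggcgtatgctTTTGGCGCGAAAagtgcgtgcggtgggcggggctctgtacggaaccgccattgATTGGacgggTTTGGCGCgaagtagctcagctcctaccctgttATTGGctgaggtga
Pcna: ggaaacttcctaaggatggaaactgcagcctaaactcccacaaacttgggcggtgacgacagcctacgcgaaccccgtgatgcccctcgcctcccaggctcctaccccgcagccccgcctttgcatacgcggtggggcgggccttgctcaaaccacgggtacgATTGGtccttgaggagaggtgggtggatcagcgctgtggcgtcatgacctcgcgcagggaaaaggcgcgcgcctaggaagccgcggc
Cenpa: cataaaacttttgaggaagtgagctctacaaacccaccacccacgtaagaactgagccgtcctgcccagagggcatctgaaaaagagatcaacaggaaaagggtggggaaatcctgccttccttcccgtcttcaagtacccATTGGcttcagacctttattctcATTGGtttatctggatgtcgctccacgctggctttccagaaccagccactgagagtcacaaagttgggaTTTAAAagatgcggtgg
Kif11: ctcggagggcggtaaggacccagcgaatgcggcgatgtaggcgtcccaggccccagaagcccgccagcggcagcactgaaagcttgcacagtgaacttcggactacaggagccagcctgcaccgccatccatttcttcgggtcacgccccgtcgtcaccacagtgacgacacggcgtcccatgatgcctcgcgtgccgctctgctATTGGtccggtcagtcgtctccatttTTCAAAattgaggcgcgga
Mki67: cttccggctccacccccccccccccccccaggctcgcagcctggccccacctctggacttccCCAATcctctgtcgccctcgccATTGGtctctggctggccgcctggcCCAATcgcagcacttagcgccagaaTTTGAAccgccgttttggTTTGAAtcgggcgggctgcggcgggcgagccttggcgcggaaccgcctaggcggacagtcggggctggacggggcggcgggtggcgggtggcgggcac
Cdc20: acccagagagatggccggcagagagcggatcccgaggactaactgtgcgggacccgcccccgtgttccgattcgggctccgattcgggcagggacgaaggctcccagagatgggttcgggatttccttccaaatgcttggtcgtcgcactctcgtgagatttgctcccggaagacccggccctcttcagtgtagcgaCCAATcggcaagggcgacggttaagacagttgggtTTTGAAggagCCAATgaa

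The D-type cyclins and Pcna were the most abundant of the 35 genes, and mitotic transcripts were scarce in every group. Per length, Ccnd2 ran from 85.5 to 854 TPM over the 24 libraries (median 325), Pcna, the sliding clamp of DNA polymerases, from 66.9 to 338 TPM (median 106), and Ccnd1 from 7.51 to 188 TPM (median 43.8). Medians of the 9 replication genes lay between 4.75 and 106 TPM. Among the helicase subunits Mcm2 to Mcm7 the medians were 20.3 TPM for Mcm6, 17.2 for Mcm4, 15.3 for Mcm3, 15.02 for Mcm7, 6.43 for Mcm2 and 4.75 for Mcm5. The median level was under 5 TPM for 20 of the 21 mitotic genes. Cenpa, the centromeric histone H3 variant, was the exception at 8.42 TPM. Mki67, the antigen used to stain cycling cells, had a median of only 0.276 TPM, and Cenpe, a kinetochore motor, 0.257 TPM. Bub1, a checkpoint kinase, had 0 counts in 6 libraries, Cdc25c, the phosphatase that activates Cdk1, in 2, and E2f1, Aurkb, Bub1b and Kif11 in 1 each.

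**Figure D1:**
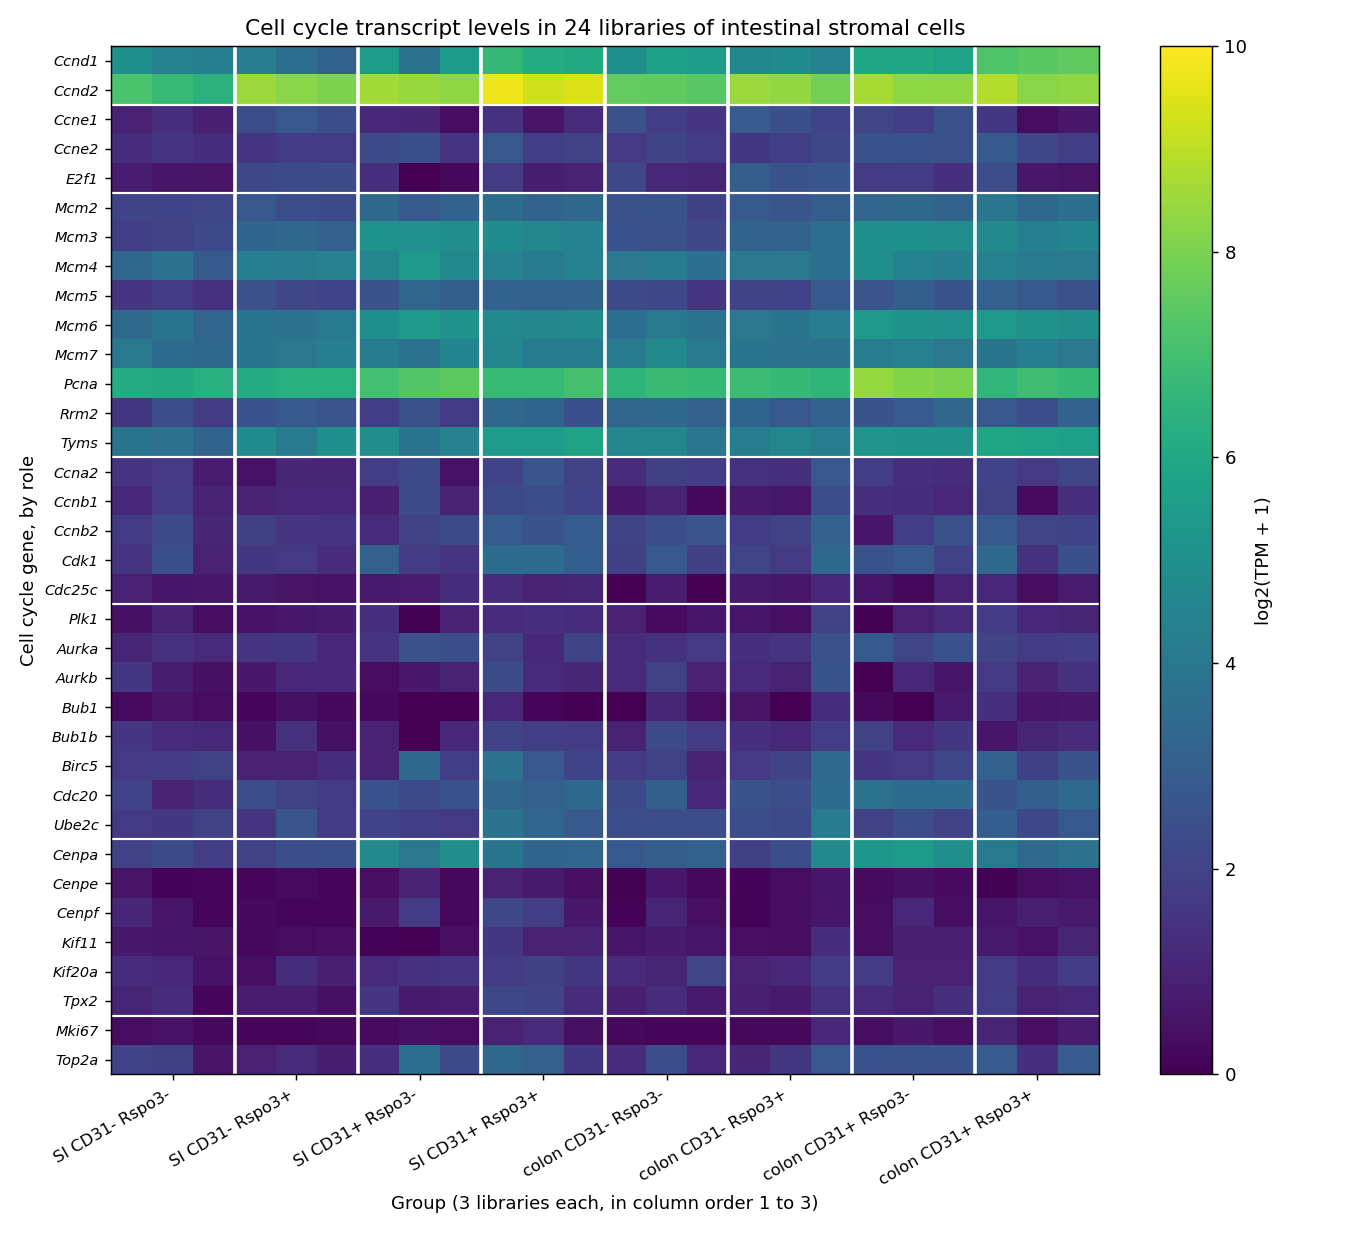
Levels of the 35 cell cycle genes (rows, by role) in the 24 libraries (columns, by group), as log2(TPM + 1). Brighter colours are higher levels: Ccnd2 and Pcna are bright throughout, the other replication genes lie between, and the mitotic rows are dark apart from Cenpa in CD31+ libraries and in library 3 of colonic CD31- Rspo3+ cells.

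The 2 gene programmes did not follow the same order of groups. All 9 replication genes had their lowest group mean TPM in small intestinal CD31- Rspo3- cells. The share of all genes with their lowest mean in that group was not counted. Mitochondrial genes held 3.49, 2.67 and 4.82% of the counts of its 3 libraries, the highest shares of the 24 (median 1.06%). These libraries also held the epithelial RNA given above, and the part of either in the TPM values was not tested. Of the 21 mitotic genes, 15 had their highest group mean in small intestinal CD31+ Rspo3+ cells, 3 in colonic CD31+ Rspo3-, 2 in colonic CD31+ Rspo3+ and 1 in colonic CD31- Rspo3+ cells. How all genes divide by their highest group was not counted either, so these numbers cannot be read as particular to mitotic genes. The summed replication level of the small intestine was 130.01, 129 and 119 TPM in CD31- Rspo3-, 165, 162 and 185 in CD31- Rspo3+, 276, 315 and 328 in CD31+ Rspo3- and 278, 256 and 289.6 in CD31+ Rspo3+ libraries. In the colon it was 177, 215 and 173, 202, 189.8 and 184, 512, 449.7 and 411 and 279, 282 and 257 TPM in the same order. CD31+ libraries were above all CD31- libraries of their tissue, and the colonic CD31+ Rspo3- libraries were the highest of all. The summed mitotic level of the small intestine was 32.2, 34.8 and 19.3, 22.6, 30.7 and 22.8, 57.2, 67.2 and 62.6 and 108, 81.0 and 62.9 TPM in that order of groups, and the CD31+ libraries again lay above the CD31- libraries. In the colon it was 32.5, 53.7 and 36.8, 31.6, 32.5 and 119, 81.9, 88.1 and 76.3 and 80.1, 43.3 and 65.3 TPM. There the CD31+ Rspo3- libraries lay above all CD31- Rspo3- libraries, the other groups overlapped, and library 3 of CD31- Rspo3+ was the highest of the 24. Much of the mitotic sum of CD31+ Rspo3- cells came from Cenpa. Without it, a sum taken after its values were seen, the group means were 39.2 ± 11.5 (SD, n = 3) TPM in small intestinal CD31+ Rspo3- and 73.8 ± 20.0 TPM in CD31+ Rspo3+ cells. In the colon they were 45.3 ± 0.306 TPM in CD31+ Rspo3- and 50.3 ± 15.9 TPM in CD31+ Rspo3+ cells, so that the CD31+ Rspo3- mean was no longer the higher of the pair. The colonic CD31+ Rspo3- libraries (45.1 to 45.7 TPM) then overlapped with CD31- Rspo3- libraries (26.8 to 47.0 TPM).

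**Figure D2:**
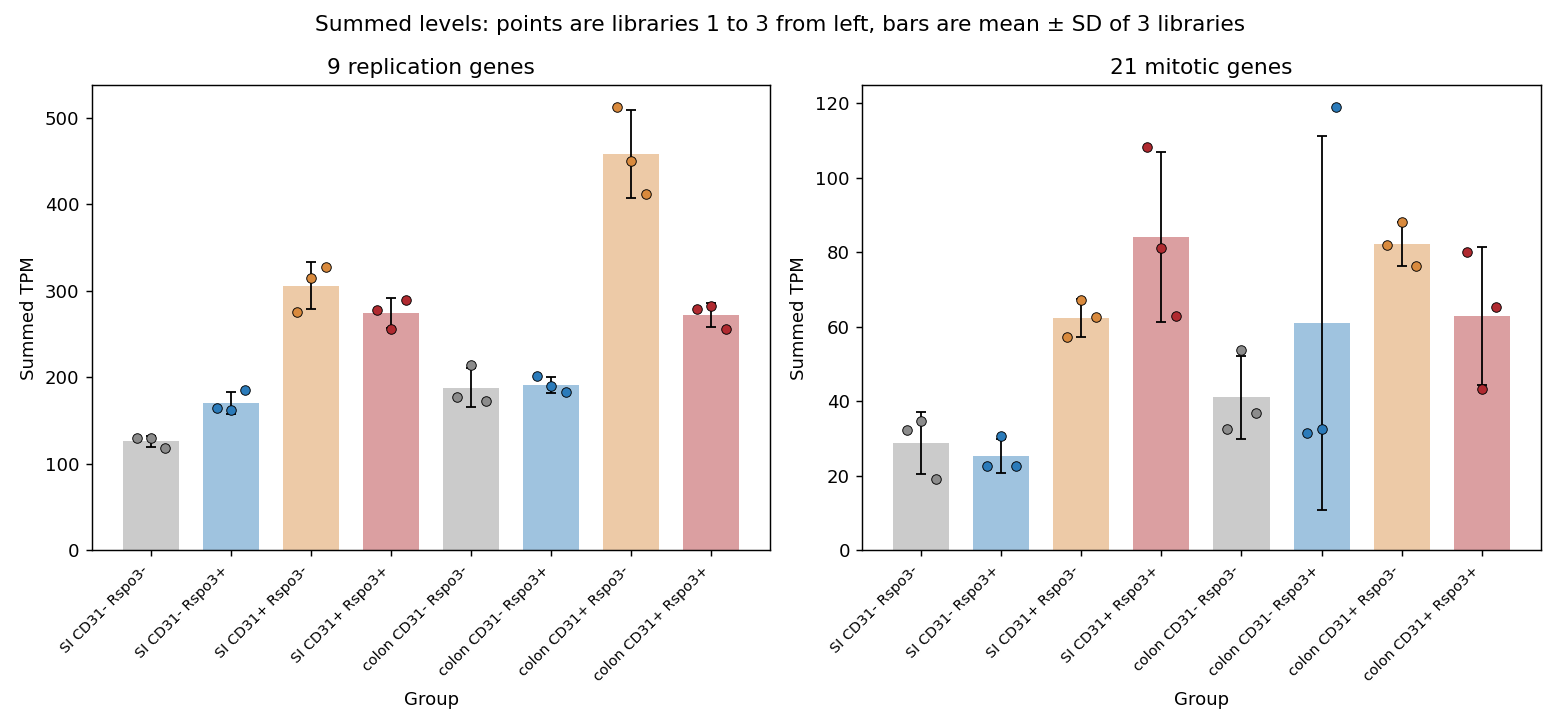
Summed TPM of the 9 replication genes and of the 21 mitotic genes by group, with each library as a point, the mean of 3 libraries as a bar and its SD as an error bar. The replication sum is highest in colonic CD31+ Rspo3- libraries (458 ± 51.0 TPM) and the mitotic sum has its widest spread in colonic CD31- Rspo3+ libraries (61.01 ± 50.1 TPM).

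Ccnd1 (chr7:144929931-144939925, minus strand, mm10) and Ccnd2 (chr6:127125162-127152193, minus strand) differed between groups by more than Pcna, and each had its own pattern. The ratio of the highest to the lowest group mean TPM was 14.3 for Ccnd1, 6.53 for Ccnd2 and 4.11 for Pcna. Ccnd1 in the small intestine was 61.1, 39.0 and 43.7 in CD31- Rspo3- cells, 33.8, 23.7 and 20.8 in CD31- Rspo3+ cells, 91.8, 29.7 and 71.9 in CD31+ Rspo3- cells and 206, 134 and 156 in CD31+ Rspo3+ cells, all in CPM. In the colon Ccnd1 was 61.1, 80.5 and 93.1 in CD31- Rspo3- cells, 49.4, 53.2 and 58.4 in CD31- Rspo3+ cells, 138, 116 and 128 in CD31+ Rspo3- cells and 264, 337 and 384 in CD31+ Rspo3+ cells. The 3 CD31+ Rspo3+ libraries were the highest of their tissue in both cases, without overlap with any other group. The CD31- Rspo3+ libraries were the lowest of the colon, and in the small intestine their range lay below that of CD31- Rspo3- cells.

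Ccnd2 in the small intestine, in CPM, was 106, 98.2 and 84.2 in CD31- Rspo3- cells, 302, 239 and 266 in CD31- Rspo3+ cells, 257, 249.5 and 238 in CD31+ Rspo3- cells and 613, 462 and 517 in CD31+ Rspo3+ cells. In the colon it was 149.8, 125 and 135 in CD31- Rspo3- cells, 311, 286 and 238 in CD31- Rspo3+ cells, 305, 246 and 233 in CD31+ Rspo3- cells and 313, 286 and 249 in CD31+ Rspo3+ cells. CD31- Rspo3- cells were the lowest group in each tissue. Only in the small intestine did CD31+ Rspo3+ libraries stand clear of all others, while the other 3 colonic groups overlapped. Exons of Ccnd1 share 23.4% of their bases and those of Ccnd2 7.86% with other annotated genes, and the strand setting of the quantification is not stated, so part of these reads could belong to a neighbour.

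**Figure D3:**
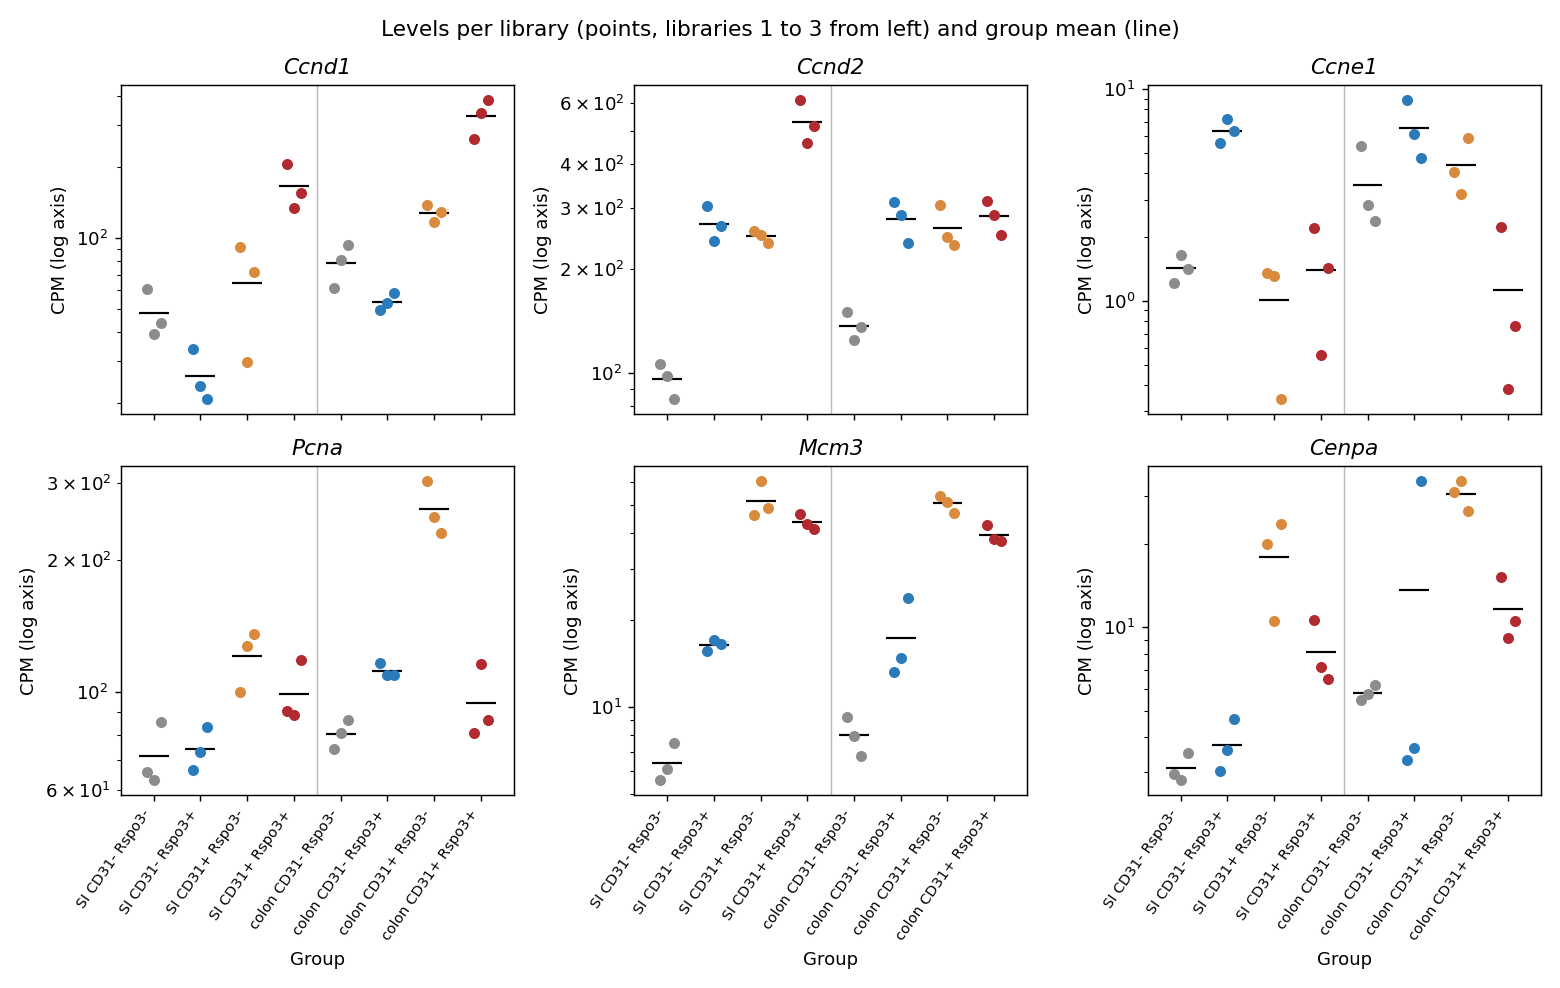
CPM (log axis) of Ccnd1, Ccnd2, Ccne1, Pcna, Mcm3 and Cenpa in each of the 24 libraries (points) by group, with a line at the group mean. Ccnd1 is highest in CD31+ Rspo3+ libraries of both tissues, Pcna in colonic CD31+ Rspo3- libraries, and Cenpa shows 1 colonic CD31- Rspo3+ library, at 33.9 CPM, far above its partners.

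CD31+ cells were compared with CD31- cells of the same tissue and Rspo3 sign, which sets endothelium against the remaining stroma. Of the 9 replication genes, 6 were higher in small intestinal CD31+ cells of the Rspo3- gate, beside 20.1% of all genes tested. In the colon 7 were higher in that gate, beside 16.1%. Mcm3 (chr1:20802968-20820312, minus strand), a subunit of the replicative helicase, was 46.0, 60.6 and 48.8 CPM in small intestinal CD31+ Rspo3- libraries against 5.61, 6.11 and 7.51 CPM in CD31- Rspo3- libraries. In the colon Mcm3 was 53.6, 51.3 and 46.8 CPM against 9.22, 7.92 and 6.79 CPM. The groups were far apart in both tissues. Mcm3 was 8.07-fold higher in the small intestine (a log2 fold change 3.01 ± 0.20 (SE), adjusted p = 8.34e-10, edgeR quasi-likelihood test with Benjamini-Hochberg adjustment over 19050 genes, as for all adjusted p-values here) and 6.34-fold higher in the colon (log2 fold change 2.67 ± 0.20 (SE), adjusted p = 4.67e-09). Pcna (chr2:132249162-132253314, minus strand) was 304, 251 and 230.4 CPM against 74.1, 80.7 and 86.6 CPM in the colon and 99.97, 128 and 136 against 65.7, 63.2 and 85.5 CPM in the small intestine. It passed in both tissues, with a larger difference in the colon (3.25-fold, log2 fold change 1.70 ± 0.17 (SE), adjusted p = 3.06e-07) than in the small intestine (1.70-fold, log2 fold change 0.76 ± 0.17 (SE), adjusted p = 0.00123). The difference between these 2 differences was not tested.

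In the small intestinal Rspo3- gate 8 of the 35 genes were higher in CD31+ cells, beside 20.1% of all genes tested, and 1 was lower, beside 21.6%. The median log2 fold change of the 35 was 0.47, against -0.03 over all genes tested. Besides Mcm3 and Pcna the higher genes were Ccnd2 (log2 fold change 1.37), Mcm6 (1.42), Mcm5 (1.39), Mcm4 (1.38), Mcm2 (0.95) and Cenpa. Cenpa was 19.9, 10.52 and 23.6 CPM against 2.94, 2.81 and 3.51 CPM, 5.82-fold higher without overlap (log2 fold change 2.54 ± 0.61 (SE), adjusted p = 0.00238, edgeR). Kif11, the kinesin-5 motor that separates spindle poles, was the gene that fell, at 0.118, 0 and 0.948 CPM against 2.08, 1.49 and 1.78 CPM (log2 fold change -2.39 ± 0.90 (SE), adjusted p = 0.04, edgeR). Its Rspo3- CD31+ libraries held 2, 0 and 11 counts. The call was lost in 5 of 6 fits that left out 1 library, for Kif11 without CD31- libraries 1, 2 or 3 or CD31+ libraries 1 or 2 (adjusted p from 0.0549 to 0.139) and with only the libraries compared (adjusted p = 0.128). In the same comparison, epithelial markers were lower in CD31+ cells for 11 of 14 tested (391 to 642 against 5852 to 9731 CPM in sum), and the part of that epithelial RNA in these results was not tested.

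In the colonic Rspo3- gate 12 of the 35 genes were higher in CD31+ cells, beside 16.1% of all genes tested. No gene was lower, beside 16.4% of all genes, and edgeR gave 0 lower at an unadjusted p under 0.05, DESeq2 0 and limma voom 1. Fold changes of the 35 had a log2 median of 0.51, against -0.07 over all genes. Each of the 8 genes higher in the small intestine was also among these 12, which is 100% of the small intestinal and 66.7% of the colonic list. The share of all genes called in both tissues was not counted, so this overlap cannot be read as particular to cell cycle genes. Cenpa was 30.8, 33.7 and 26.4 CPM against 5.44, 5.76 and 6.16 CPM (5.23-fold; log2 fold change 2.39 ± 0.60 (SE), adjusted p = 0.00471, edgeR), again without overlap. The 4 further genes were Tyms, thymidylate synthase (log2 fold change 0.88), Cdc20, the activator of the anaphase-promoting complex (1.55), Aurka, a spindle pole kinase (1.498), and Ccne2, an E-type cyclin that shares 17.4% of its exon bases with Ints8 (0.98). Calls were lost when single libraries were left out for Ccne2 without CD31- libraries 1, 2 or 3 or CD31+ libraries 1 or 3 (adjusted p from 0.0895 to 0.137), Mcm4 without CD31+ library 1 (adjusted p = 0.0556), Mcm5 without CD31- library 3 or CD31+ library 2 (adjusted p from 0.0733 to 0.0782), Tyms without CD31- libraries 2 or 3 (adjusted p from 0.0765 to 0.0784), Aurka without CD31- libraries 1 or 2 or CD31+ libraries 1 or 3 (adjusted p from 0.0645 to 0.124) and Cdc20 without CD31- libraries 1 or 3 or CD31+ library 1 (adjusted p from 0.0718 to 0.0982). Ccne2 (adjusted p = 0.06) and Cdc20 (0.0539) also missed with only the libraries compared, and Ccne2 (0.13) and Aurka (0.0641) without the filter on low counts (edgeR). Blood endothelial markers were higher in CD31+ cells for 10 of 10, fibroblast markers lower for 10 of 10 and epithelial markers lower for 7 of 14, and their part was not tested.

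In the Rspo3+ gate of the small intestine mitotic genes were higher in CD31+ cells as well. Of the 35 genes, 15 were higher in CD31+ Rspo3+ than in CD31- Rspo3+ cells, beside 16.9% of all genes tested, and 1 was lower, beside 19.6%. Their median log2 fold change was 1.19, against -0.01 over all genes. All 21 mitotic genes had positive fold changes (median 1.46), and 9 of them passed. Ccnd1 had the smallest adjusted p, at 165 ± 37.3 against 26.1 ± 6.82 CPM (SD, n = 3 each), 6.33-fold higher (log2 fold change 2.66 ± 0.31 (SE), adjusted p = 1.03e-06, edgeR). Cenpf, a kinetochore protein, was 10.6, 6.69 and 4.505 CPM against 0.565, 1.18 and 0.972 CPM, so that the lowest CD31+ library lay above the highest CD31- library (log2 fold change 3.01 ± 0.71 (SE), adjusted p = 0.00211, edgeR). Mki67 (chr7:135689784-135716361, minus strand) was 6.20, 8.71 and 2.49 CPM against 1.09, 0.965 and 1.26 CPM, also without overlap (log2 fold change 2.39 ± 0.68 (SE), adjusted p = 0.00829, edgeR).

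The other mitotic genes that passed in this comparison were Top2a, the topoisomerase that untangles sister chromatids (log2 fold change 2.29), Birc5, a chromosomal passenger subunit (2.24), Tpx2, a spindle assembly factor (2.04), Cdk1, the mitotic kinase (1.98), its partner cyclin Ccna2 (1.91), Kif20a, a kinesin of cytokinesis (1.46), and Cdc20 (1.41). Mcm3 (1.40), Ccnd2 (0.98), Mcm5 (0.90), Mcm2 (0.83) and Mcm6 (0.57) were higher too. Ccne1, the cyclin that drives S phase entry with Cdk2, was the gene that fell, at 2.20, 0.552 and 1.42 CPM against 5.53, 7.19 and 6.32 CPM (log2 fold change -2.18 ± 0.60 (SE), adjusted p = 0.00682, edgeR). Exons of Kif20a share 29.3% of their bases with Cdc23 and those of Ccna2 also overlap Exosc9, so that their counts are uncertain. Single libraries decided several calls: Mcm5 without CD31- libraries 2 or 3 or CD31+ libraries 1 or 3 (adjusted p from 0.0768 to 0.106), Mcm6 without CD31- library 2 (adjusted p = 0.0639), Ccna2 without CD31- libraries 1, 2 or 3 or CD31+ libraries 2 or 3 (adjusted p from 0.0506 to 0.15), Cdk1 without CD31- libraries 1, 2 or 3 or CD31+ library 1 (adjusted p from 0.0511 to 0.0962), Birc5 without CD31- libraries 1 or 2 or CD31+ library 1 (adjusted p from 0.0555 to 0.0951), Cdc20 without CD31- libraries 1, 2 or 3 or CD31+ libraries 1 or 3 (adjusted p from 0.0665 to 0.0825), Kif20a without CD31- libraries 1 or 3 or CD31+ libraries 1, 2 or 3 (adjusted p from 0.0581 to 0.154) and Top2a without CD31- library 1 or CD31+ library 1 (adjusted p from 0.056 to 0.0623). Without the filter on low counts Mcm5 (adjusted p = 0.105), Kif20a (0.0759) and Cdc20 (0.0536) missed (edgeR). Counts of called genes were 10 without CD31+ library 1 or CD31- library 1. Fibroblast markers were lower in CD31+ cells for 10 of 10 and lymphatic endothelial markers higher for 9 of 9, and the part of this change of cell type was not tested.

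In the colonic Rspo3+ gate 5 of the 35 genes were higher in CD31+ cells, beside 14.9% of all genes tested, and 1 was lower, beside 18.2%. Over the 35 genes the median log2 fold change was -0.23, against -0.07 over all genes. Ccnd1 was 328 ± 60.9 against 53.6 ± 4.52 CPM (SD, n = 3 each; 6.12-fold, log2 fold change 2.61 ± 0.31 (SE), adjusted p = 1.8e-06, edgeR). The others were Mcm3 (1.19), Tyms (1.31), Mcm6 (0.93) and Mcm2 (0.68). Ccne1 fell, from 8.88, 6.10 and 4.74 CPM in CD31- to 2.22, 0.384 and 0.758 CPM in CD31+ libraries (log2 fold change -2.54 ± 0.61 (SE), adjusted p = 0.00283, edgeR). Leaving out single libraries lost the call of Mcm2 without CD31- libraries 1 or 2 or CD31+ libraries 1 or 3 (adjusted p from 0.0553 to 0.0929), as did omitting the filter on low counts (adjusted p = 0.0933). The mitotic genes in this comparison depended on library 3 of the CD31- group. With it, 6 of 21 fold changes were positive (median -0.38), and without it 20 of 21 (median 0.72). Without that library Cenpa (log2 fold change 1.73, adjusted p = 0.000616), Mki67 (1.89, adjusted p = 0.0133) and Cenpf (2.03, adjusted p = 0.0439) passed as well, each higher in CD31+ cells (edgeR). Ccnd1 (2.68), Mcm3 (1.49), Tyms (1.37), Mcm6 (1.11), Mcm2 (0.87) and Ccne1 (-2.73) still passed without it. With all libraries, plasma cell markers were lower in CD31+ cells for 4 of 6 and fibroblast markers for 10 of 10.

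**Figure D4:**
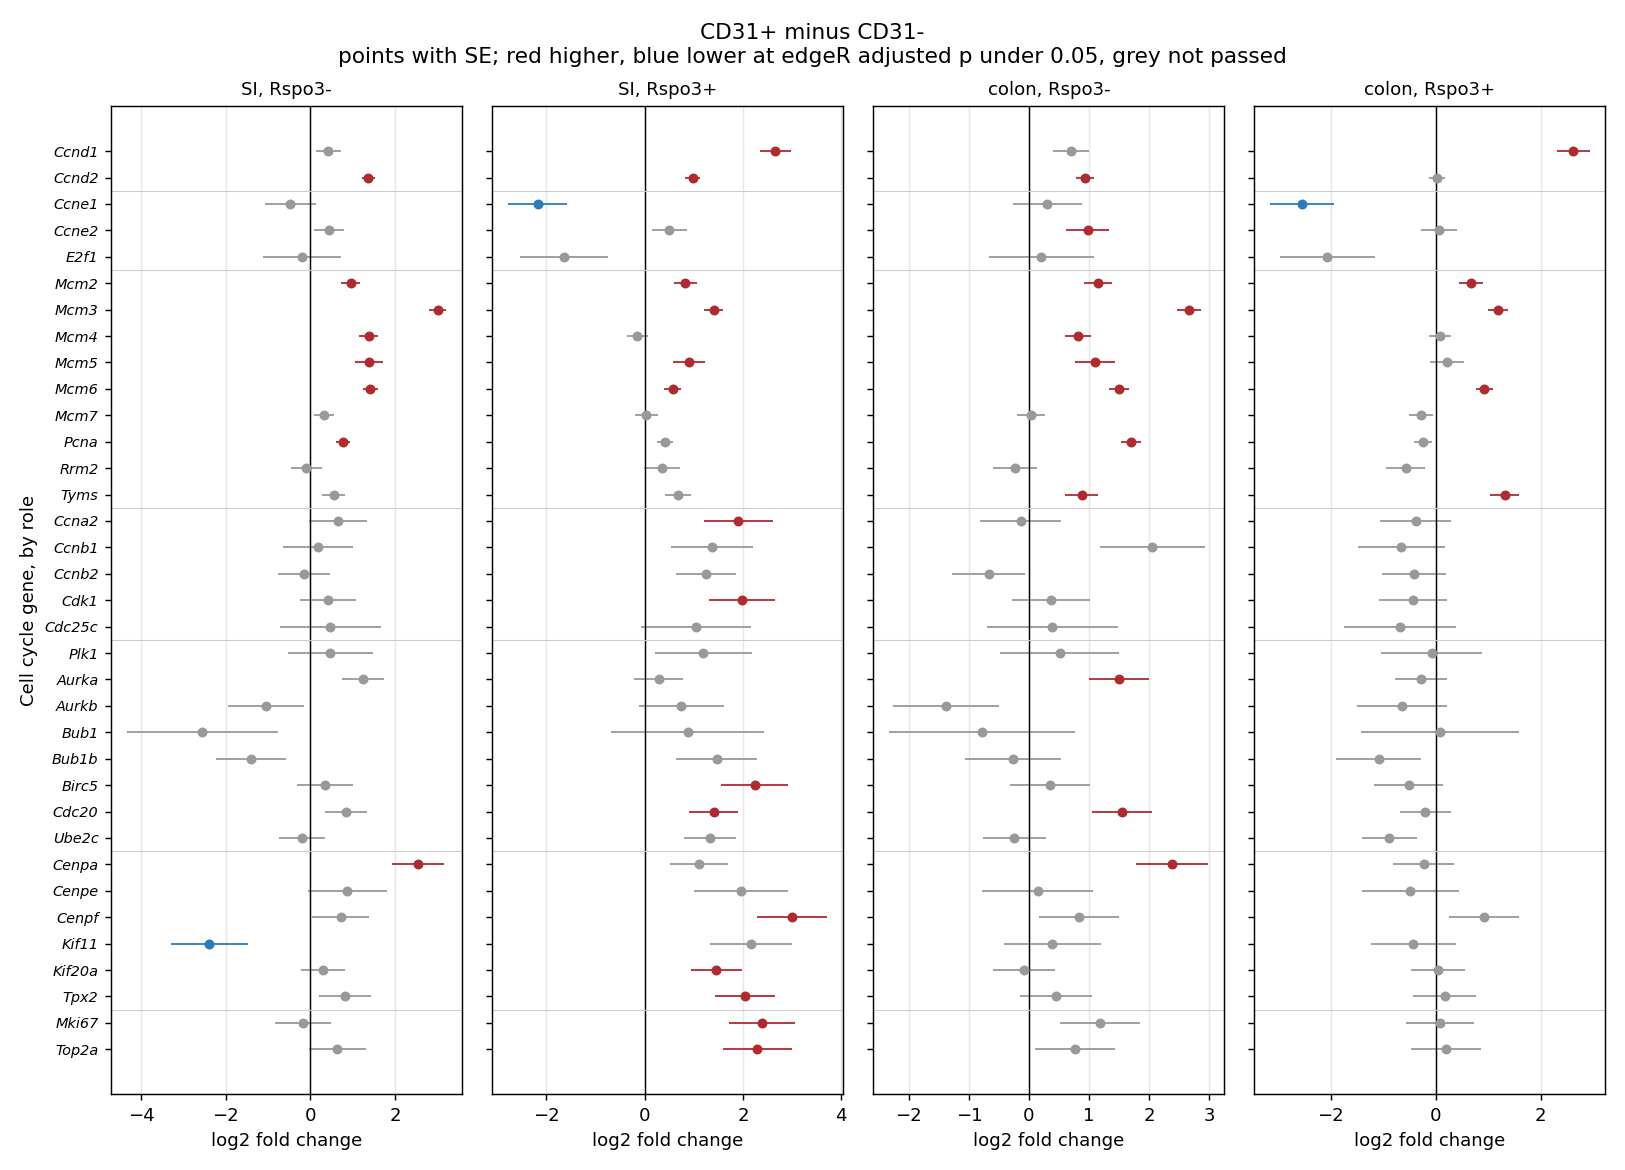
Log2 fold change (CD31+ over CD31-) with its SE for the 35 genes in the Rspo3- and Rspo3+ gates of each tissue, with red points for genes that were higher and blue for genes that were lower at an edgeR adjusted p under 0.05, and grey for the rest. Mcm3 lies furthest right in both Rspo3- panels and Ccnd1 among the furthest in both Rspo3+ panels.

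Rspo3+ cells were then compared with Rspo3- cells of the same tissue and CD31 sign. These comparisons use the same libraries as those of CD31. Among small intestinal CD31+ cells, 6 of the 35 genes were higher in the Rspo3+ gate, beside 9.23% of all genes tested. None was lower, beside 10.8% of all genes, and edgeR gave 2 lower at an unadjusted p under 0.05, DESeq2 1 and limma voom 0. The median log2 fold change was 0.88, against 0.00 over all genes, and 29 of 35 were positive. Ccnd2 was 531 ± 76.8 against 248 ± 9.96 CPM (SD, n = 3 each), 2.14-fold higher (log2 fold change 1.10 ± 0.15 (SE), adjusted p = 2.1e-05, edgeR). Ccnd1 was 165 ± 37.3 against 64.5 ± 31.7 CPM (2.56-fold; log2 fold change 1.36 ± 0.30 (SE), adjusted p = 0.00248, edgeR). Kif11 was 6.43, 2.58 and 3.08 CPM against 0.118, 0 and 0.948 CPM, with no overlap (log2 fold change 3.56 ± 0.93 (SE), adjusted p = 0.00865, edgeR). Tyms (log2 fold change 1.09), Rrm2, the small subunit of ribonucleotide reductase (1.33), and Ube2c, a ubiquitin-conjugating enzyme of the anaphase-promoting complex (1.88), completed the list. Exons of Ube2c share 22.8% of their bases with Tnnc2. Calls were lost for Rrm2 without Rspo3- libraries 1 or 3 or Rspo3+ libraries 1 or 2 (adjusted p from 0.0528 to 0.0726) and Ube2c without Rspo3- libraries 2 or 3 or Rspo3+ library 1 (adjusted p from 0.0524 to 0.0869). With only the libraries compared in the fit, Kif11 (adjusted p = 0.0571), Tyms (0.0652) and Rrm2 (0.0844) did not pass (edgeR). Lymphatic endothelial markers were higher for 9 of 9 tested in the same comparison and blood endothelial markers lower for 8 of 10, and their part in these results was not tested.

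Among colonic CD31+ cells, 1 of the 35 genes was higher in the Rspo3+ gate, beside 9.52% of all genes tested, and 2 were lower, beside 13.6%. The 35 genes had a median log2 fold change of 0.08, against -0.05 over all genes. Ccnd1 was 328 ± 60.9 against 128 ± 10.9 CPM (2.57-fold; log2 fold change 1.36 ± 0.30 (SE), adjusted p = 0.00212, edgeR), a fold close to that of the small intestine. Pcna was 80.6, 116 and 86.5 CPM against 304, 251 and 230.4 CPM, 2.77-fold lower with no overlap (log2 fold change -1.47 ± 0.17 (SE), adjusted p = 2.42e-06, edgeR). Ccne1 was 2.22, 0.384 and 0.758 CPM against 4.04, 3.18 and 5.87 CPM (log2 fold change -1.95 ± 0.60 (SE), adjusted p = 0.0218, edgeR), and leaving out single libraries lost the call of Ccne1 without Rspo3- library 3 or Rspo3+ libraries 2 or 3 (adjusted p from 0.083 to 0.1), as did a fit of only the libraries compared (adjusted p = 0.0677). Ccnd2 was 283 ± 31.8 against 262 ± 38.4 CPM and did not pass. Lymphatic markers were higher for 9 of 9 here too, and blood endothelial markers lower for 9 of 10, with their part in these results not tested.

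Among small intestinal CD31- cells, 6 of the 35 genes were higher in the Rspo3+ gate, beside 16.1% of all genes tested, and 1 was lower, beside 14.3%. Across the 35 genes the log2 fold change had a median of 0.11, against 0.11 over all genes. Ccnd2 was 269 ± 31.4 against 96.2 ± 11.1 CPM (SD, n = 3 each; 2.80-fold, log2 fold change 1.48 ± 0.15 (SE), adjusted p = 8.33e-07, edgeR). Mcm3 was 15.6, 17.1 and 16.6 CPM against 5.61, 6.11 and 7.51 CPM (2.56-fold; log2 fold change 1.36 ± 0.19 (SE), adjusted p = 2.34e-05, edgeR). Ccne1 was 5.53, 7.19 and 6.32 CPM against 1.21, 1.65 and 1.41 CPM (4.46-fold; log2 fold change 2.16 ± 0.60 (SE), adjusted p = 0.00904, edgeR). All 3 of these genes showed no overlap between the groups. E2f1, a transcription factor of the G1/S genes, was 6.95, 7.62 and 7.87 CPM against 1.38, 0.992 and 0.973 CPM (log2 fold change 2.73 ± 0.94 (SE), adjusted p = 0.0329, edgeR). Mcm4 (0.95) and Tyms (0.97) were higher as well. Ccnd1 fell (log2 fold change -0.88 ± 0.30 (SE), adjusted p = 0.0312, edgeR), the opposite sign to Ccnd2. Calls were lost for Ccnd1 without Rspo3- libraries 1 or 3 or Rspo3+ libraries 2 or 3 (adjusted p from 0.0513 to 0.146), E2f1 without any 1 of the 6 libraries (adjusted p from 0.0563 to 0.107) and Tyms without Rspo3- library 3 or Rspo3+ library 3 (adjusted p from 0.0659 to 0.161). Fibroblast markers were higher in the Rspo3+ gate for 8 of 10 (93662 to 105914 against 16043 to 22146 CPM in sum) and epithelial markers lower for 13 of 14, and their part in these results was not tested.

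Among colonic CD31- cells, 4 of the 35 genes were higher in the Rspo3+ gate, beside 4.8% of all genes tested. None was lower, beside 4.34%, with 0 lower at an unadjusted p under 0.05 by edgeR, 0 by DESeq2 and 0 by limma voom. The median log2 fold change was 0.89, against 0.00 over all genes, and 34 of 35 were positive. Ccnd2 was 278 ± 37.5 against 137 ± 12.7 CPM (SD, n = 3 each; log2 fold change 1.03 ± 0.15 (SE), adjusted p = 0.00022, edgeR), and Mcm3 was 13.3, 14.8 and 23.8 CPM against 9.22, 7.92 and 6.79 CPM (log2 fold change 1.12 ± 0.19 (SE), adjusted p = 0.000728, edgeR). Mcm2 was 14.9, 13.6 and 20.2 CPM against 9.96, 9.68 and 6.02 CPM (log2 fold change 0.93 ± 0.23 (SE), adjusted p = 0.0144, edgeR). Mki67 was 1.27, 1.18 and 10.4 CPM against 1.05, 0.697 and 0.812 CPM (log2 fold change 2.34 ± 0.68 (SE), adjusted p = 0.0359, edgeR), and its first 2 Rspo3+ libraries lay close to the Rspo3- range. Without library 3 of the Rspo3+ group, Ccnd2 (log2 fold change 1.13, adjusted p = 0.000134) and Mcm3 (0.82, adjusted p = 0.0027) still passed, and Mcm2 (0.73, adjusted p = 0.0572) and Mki67 (0.52, adjusted p = 0.625) did not (edgeR). Mcm2 also missed without Rspo3- library 3 (adjusted p = 0.0895), and Mki67 without Rspo3- library 1, 2 or 3 (adjusted p = 0.082, 0.124 and 0.117, edgeR). With only the libraries compared in the fit, Mcm3 (adjusted p = 0.0868), Mcm2 (0.132) and Mki67 (0.202) did not pass, which left Ccnd2 (edgeR). Without Rspo3+ library 3, 19 of the 35 fold changes were positive and their median was 0.14. Leukocyte markers were higher in the Rspo3+ gate for 8 of 13 tested with all libraries. Ccnd2 and Mcm3 were the genes higher in the Rspo3+ gate of CD31- cells in both tissues, 33.3% of the small intestinal and 50% of the colonic list. The overlap over all genes was not counted here either.

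**Figure D5:**
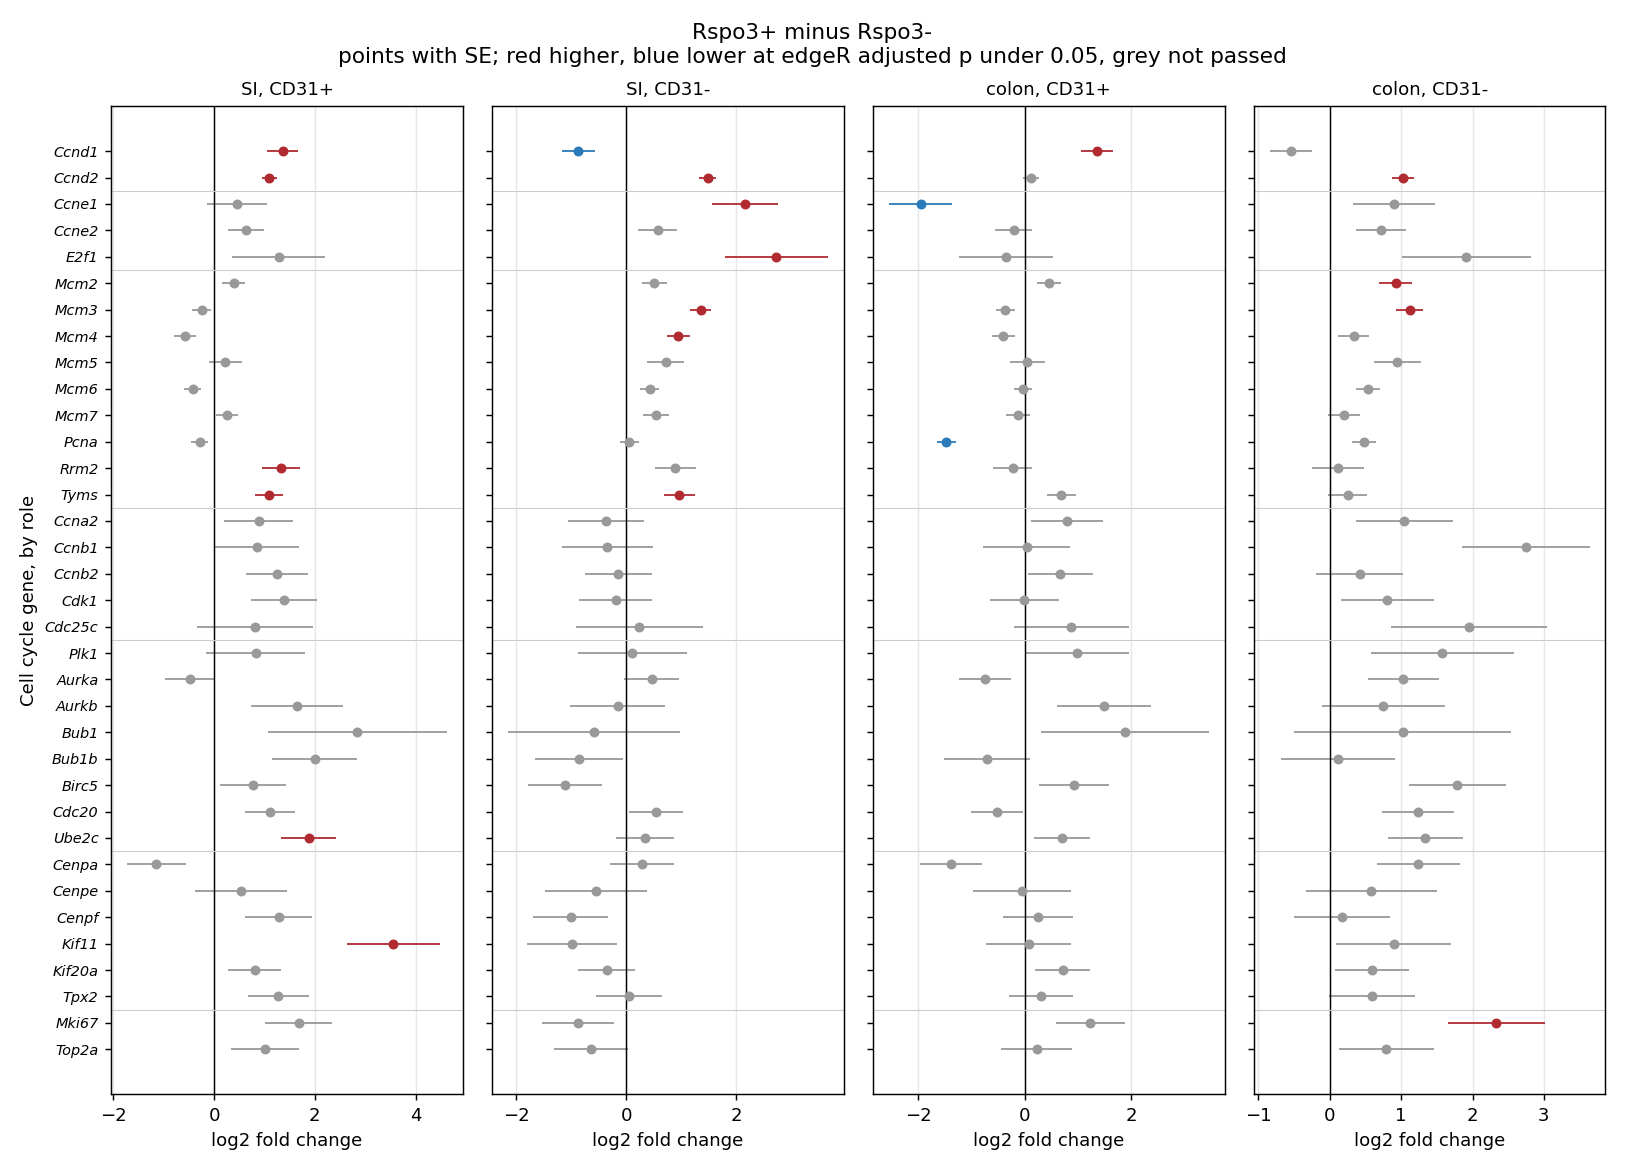
Log2 fold change (Rspo3+ over Rspo3-) with its SE for the 35 genes in CD31+ and CD31- cells of each tissue, with red points for genes that were higher and blue for genes that were lower at an edgeR adjusted p under 0.05, and grey for the rest. Ccnd1 is to the right in both CD31+ panels and to the left in the small intestinal CD31- panel, and Pcna stands to the left in colonic CD31+ cells.

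Colon was compared with small intestine within each gate. In CD31+ Rspo3+ cells 1 of 35 passed, beside 6.35% of all genes tested in either direction. It was Ccnd2, lower in the colon at 283 ± 31.8 against 531 ± 76.8 CPM (SD, n = 3 each; log2 fold change -0.91 ± 0.15 (SE), adjusted p = 0.00075, edgeR). In CD31+ Rspo3- cells 1 of 35 passed with edgeR, beside 4.43%, and 5 with DESeq2 and 5 with limma voom. It was Pcna, higher in the colon at 262 ± 37.8 against 121 ± 19.0 CPM (log2 fold change 1.11 ± 0.17 (SE), adjusted p = 0.000612, edgeR). In CD31- Rspo3- cells 2 of 35 passed, beside 17.6%, Rrm2 (log2 fold change 1.31) and Ccnd2 (0.51), both higher in the colon, and single libraries decided both: Ccnd2 without small intestinal libraries 2 or 3 or colonic libraries 1 or 3 (adjusted p from 0.0559 to 0.136) and Rrm2 without small intestinal libraries 1 or 3 or colonic library 1 (adjusted p from 0.0595 to 0.0992). Ccnd2 also missed there with only the libraries compared (adjusted p = 0.0804) and without the filter on low counts (0.118, edgeR). In CD31- Rspo3+ cells 2 of 35 passed with edgeR, beside 7.02%, and 9 with DESeq2. The 2 were Pcna (0.59) and Ccnd1 (1.04), again higher in the colon. Neither held without colonic library 3, among others: Ccnd1 without small intestinal libraries 2 or 3 or colonic libraries 1 or 3 (adjusted p from 0.0692 to 0.145) and Pcna without small intestinal libraries 1 or 2 or colonic libraries 1 or 3 (adjusted p from 0.0851 to 0.159), and Pcna also missed without the filter on low counts (adjusted p = 0.0928). In that comparison 32 of 35 fold changes were positive, with all 21 mitotic genes positive at a median of 1.36, and without colonic library 3 they were 23 of 35, with 15 of 21 mitotic genes positive at a median of 0.30.

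Whether the Rspo3 difference itself differed between tissues or between CD31 gates was tested with interaction terms. Between tissues, 2 of 35 genes passed in CD31+ cells, beside 1.93% of all genes tested. Pcna (-1.18 ± 0.24 (SE), adjusted p = 0.0102, edgeR) and Ccnd2 (-0.98 ± 0.21 (SE), adjusted p = 0.0164, edgeR) had a lower Rspo3 difference in the colon than in the small intestine (values are differences of log2 fold changes), and single libraries lost the call of Ccnd2 without small intestinal CD31+ Rspo3+ library 1 or colonic CD31+ Rspo3- library 1 or colonic CD31+ Rspo3+ library 3 (adjusted p from 0.0561 to 0.0616). With only the libraries compared in the fit, neither passed (adjusted p = 0.0621 for Pcna and 0.051 for Ccnd2, edgeR). In CD31- cells 1 of 35 passed, Mki67 (3.22 ± 0.94 (SE), adjusted p = 0.04, edgeR), beside 8.38% of all genes, and without library 3 of the colonic CD31- Rspo3+ group it was 1.41, adjusted p = 0.326. Mki67 missed in 10 of 12 fits without 1 library, with only the libraries compared (adjusted p = 0.0794, edgeR) and with limma voom (adjusted p = 0.142). Between the CD31 gates, 5 of 35 passed in the small intestine, beside 24.3%, and 6 of 35 in the colon, beside 17%. Ccnd1 had a higher Rspo3 difference in CD31+ than in CD31- cells of both tissues, by 2.23 log2 units in the small intestine and 1.91 in the colon. For Mcm3 the term was negative in both, -1.61 and -1.48.

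A further 109 cell cycle genes (G1 cyclins, kinases and E2F factors; inhibitors and pocket proteins; origin licensing and replication; spindle, checkpoint and cytokinesis) were counted in the same fits, 108 of them tested. For Rspo3+ over Rspo3-, small intestinal CD31+ cells had 11 higher (10.2%, beside 9.23% of all genes tested) and 10 lower (9.26%, beside 10.8%). Colonic CD31+ cells had 7 higher (6.48%, beside 9.52% of all genes tested) and 22 lower (20.4%, beside 13.6%). Small intestinal CD31- cells had 23 higher (21.3%, beside 16.1% of all genes tested) and 9 lower (8.33%, beside 14.3%). Colonic CD31- cells had 10 higher (9.26%, beside 4.8% of all genes tested) and 3 lower (2.78%, beside 4.34%). The small intestinal CD31+ shares were thus near those of all genes. For CD31+ over CD31-, the small intestinal Rspo3- gate had 33 higher (30.6%, beside 20.1% of all genes tested) and 9 lower (8.33%, beside 21.6%). The colonic Rspo3- gate had 28 higher (25.9%, beside 16.1% of all genes tested) and 3 lower (2.78%, beside 16.4%). The small intestinal Rspo3+ gate had 31 higher (28.7%, beside 16.9% of all genes tested) and 11 lower (10.2%, beside 19.6%). The colonic Rspo3+ gate had 10 higher (9.26%, beside 14.9% of all genes tested) and 22 lower (20.4%, beside 18.2%). All of these counts include library 3 of the colonic CD31- Rspo3+ group. They were not repeated without it, and its part in the colonic CD31- Rspo3 and colonic Rspo3+ gate counts was not tested. The genes with the smallest adjusted p in each direction are named, with log2 fold changes.

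In small intestinal CD31+ cells, Rspo3+ cells had more Smc4, a condensin subunit (0.92), Dut, which degrades dUTP (1.39) and Anln, a cytokinesis scaffold (3.94), and less Rb1, the retinoblastoma protein (-1.25), Cdkn2d, a Cdk4 and Cdk6 inhibitor (-1.37) and Btg1, an antiproliferative factor (-0.70). In colonic CD31+ cells they had more Smc4 (1.15), Cdk6, the partner kinase of D-type cyclins (1.52) and Dut (1.05), and less Btg1 (-1.81), Btg2 (-1.90) and Cdkn1a, the Cdk inhibitor p21 (-2.01). Of the 17 inhibitors and pocket proteins tested there, 9 were lower (52.9%, beside 13.6% of all genes tested). Their median log2 fold change was -1.05, against -0.05 over all genes. Genes among these 17 were called in the other comparisons too, given here with the shares of all genes tested. For Rspo3, small intestinal CD31- cells had 8 higher (47.1%, beside 16.1%) and 3 lower (17.6%, beside 14.3%). Small intestinal CD31+ cells had 3 (17.6%, beside 9.23%) and 6 (35.3%, beside 10.8%), and colonic CD31- cells 3 (17.6%, beside 4.8%) and 2 (11.8%, beside 4.34%). For CD31, small intestinal Rspo3- cells had 8 higher (47.1%, beside 20.1%) and 4 lower (23.5%, beside 21.6%). Small intestinal Rspo3+ cells had 5 (29.4%, beside 16.9%) and 5 (29.4%, beside 19.6%). Colonic Rspo3- cells had 7 (41.2%, beside 16.1%) and 2 (11.8%, beside 16.4%), and colonic Rspo3+ cells 3 (17.6%, beside 14.9%) and 8 (47.1%, beside 18.2%). In CD31- cells, Rspo3+ cells of the small intestine had more Myc, a growth-driving transcription factor (2.59), Ccng1, a p53-induced cyclin (1.16) and Btg2 (1.18), and less Cdkn2b, the inhibitor p15 (-5.57), Gadd45a, a stress-induced growth arrest gene (-1.47) and Gmnn, the licensing inhibitor geminin (-3.78). Those of the colon had more Myc (1.83), Cks1b (1.29) and Pkmyt1, a kinase that restrains Cdk1 (0.98), and less Cdk6 (-1.55), Gadd45a (-1.12) and Cdkn2c (-1.16).

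For CD31, small intestinal CD31+ Rspo3- cells had more Cdk2, the partner kinase of cyclin E (2.05), Cdkn1a (2.13) and Pold1, a replicative polymerase subunit (1.89) than CD31- cells, and less Gadd45a (-2.00) and Ccng2 (-1.28). Colonic CD31+ Rspo3- cells had more Rb1 (2.10), Cdkn1a (2.03) and Btg1 (1.41), and less Gadd45a (-0.90), Cdkn2c (-1.07) and Sgo1, which protects centromeric cohesion (-3.00). In the Rspo3+ gate, small intestinal CD31+ cells had more Smc4 (1.93), Racgap1, a cytokinesis regulator (2.94) and Trp53, the tumour suppressor p53 (0.63), and less Ccng1 (-1.75), Ccng2 (-1.66) and Rbl2, the pocket protein p130 (-1.25). Colonic CD31+ Rspo3+ cells had more Smc4 (2.00), Cdk6 (3.07) and Pold1 (1.05), and less Btg2 (-2.20), Ccng2 (-1.91) and Myc (-2.56). Smc4 was thus among the 3 leading genes in each comparison that has CD31+ Rspo3+ cells on its first side within a tissue. Comparisons within a tissue share those libraries, and those of the small intestine and the colon have no library in common.

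Mcm7, a helicase subunit, the B-type cyclins Ccnb1 and Ccnb2, Cdc25c, Plk1, a kinase of mitotic entry, Aurkb, the kinase of the chromosomal passenger complex, Bub1, Bub1b, a spindle checkpoint protein, and Cenpe passed in none of the 16 edgeR comparisons. Of their 144 tests, 9 had an unadjusted edgeR p under 0.05, and DESeq2 called 6 and limma voom 5, all of Aurkb, Bub1b or Ccnb1. Per length Mcm7 varied least of the helicase subunits, from 9.06 to 25.5 TPM over the libraries. Ccnb1 ran from 0.151 to 4.24, Ccnb2 from 0.529 to 7.45, Plk1 from 0.0357 to 2.83, Aurkb from 0 to 4.97 and Bub1b from 0 to 3.61 TPM. Their lowest libraries held 5, 10, 1, 0 and 0 counts, and that of Mcm7 held 176. The part of low counts in the missing calls was not tested.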

How the data were processed

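RNA was extracted with a Qiagen kit and made into cDNA libraries with SMART-Seq v4 chemistry, per the labels' protocols. The submitters' processing notes name Salmon 1.3.0, R 4.0.1 and the mm10 build, and leave the annotation release and the strand setting unstated. The authors deposited a table of estimated counts per gene in whole numbers, and a table of log2(TPM + 1) values that were turned back to TPM here. Gene symbols came from a reference table for 54096 of 54418 gene IDs (99.4%), and unmatched IDs held at most 0.068% of a library's counts. Column names give each library's group and no replicate number, so library numbers 1 to 3 follow the column order and are names only.

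Counts were filtered with filterByExpr (minimum count 10, minimum total 15), scaled by TMM and fitted with edgeR 4.0.16 in R 4.3.3 as 1 model of 8 group means over all 24 libraries. Quasi-likelihood tests gave 12 pairwise comparisons and 4 interaction terms, each adjusted by the Benjamini-Hochberg method over 19050 genes, with calls at an adjusted p under 0.05. Library totals ran from 8462041 to 29214487 counts, and the common biological coefficient of variation was 0.429. The test was tried on simulated data first. Alternatives were DESeq2 size factors, DESeq2 1.42.0, limma 3.58.1 voom, no filter on low counts, only the libraries compared, each library left out in turn, and CPM in place of TPM for summed levels. All 35 genes are named by role. From the other cell cycle lists the 3 genes with the smallest adjusted p per comparison and direction are named, and of the cell type markers the list sums. A gene that this rule would name is not reported here. The members and lists were chosen with earlier results of these data known. Promoter windows came from RefSeq, build GRCm38.p6.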

Additional observations from a re-analysis of the deposited data

Results flagged for a closer look

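The results here are differences between 2 Rspo3 differences (Rspo3+ over Rspo3-, log2) that passed an interaction test in edgeR. Between tissues, colon minus small intestine, Pcna in CD31+ cells was -1.18 ± 0.24 (SE), adjusted p = 0.0102, and Ccnd2 in CD31+ cells was -0.98 ± 0.21 (SE), adjusted p = 0.0164. Neither passed with only the libraries compared in the fit (adjusted p = 0.0621 for Pcna and 0.051 for Ccnd2, edgeR). Mki67 in CD31- cells was 3.22 ± 0.94 (SE), adjusted p = 0.04, and it missed in 10 of 12 fits without 1 library, with only the libraries compared (adjusted p = 0.0794) and with limma voom (adjusted p = 0.142).

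Between gates of the small intestine, CD31+ minus CD31-, Ccnd1 was 2.23 ± 0.42 (SE), adjusted p = 0.000612, and Kif11 was 4.55 ± 1.23 (SE), adjusted p = 0.0102 (edgeR). Mcm3 was -1.61 ± 0.26 (SE), adjusted p = 0.000144, Mcm4 was -1.53 ± 0.30 (SE), adjusted p = 0.000926, and Mcm6 was -0.85 ± 0.24 (SE), adjusted p = 0.0126 (edgeR). The Mcm6 call was lost in 3 of 12 fits without 1 library (Mcm6 without small intestinal CD31- Rspo3+ library 3 or small intestinal CD31+ Rspo3- library 2 or small intestinal CD31+ Rspo3+ library 2 (adjusted p from 0.066 to 0.157)), and without the filter on low counts (adjusted p = 0.0603).

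Between gates of the colon, Ccnd1 was 1.91 ± 0.42 (SE), adjusted p = 0.00299, and Ccnd2 was -0.91 ± 0.21 (SE), adjusted p = 0.0046 (edgeR). Pcna was -1.95 ± 0.24 (SE), adjusted p = 7.34e-06, and Mcm3 was -1.48 ± 0.26 (SE), adjusted p = 0.000429 (edgeR). Ccne1 was -2.85 ± 0.82 (SE), adjusted p = 0.0208, and it missed in 6 of 12 fits without 1 library. Cenpa was -2.62 ± 0.82 (SE), adjusted p = 0.033, and it missed in 8 of 12 fits without 1 library (adjusted p from 0.0566 to 0.348), with only the libraries compared (adjusted p = 0.113) and with limma voom (adjusted p = 0.0622). Without library 3 of the colonic CD31- Rspo3+ group, where Cenpa was 33.9 CPM against 3.32 and 3.67 CPM, it was -0.66, adjusted p = 0.348 (edgeR). Without the same library Pcna (-1.96, adjusted p = 1.69e-05), Mcm3 (-1.18, adjusted p = 0.000733) and Ccnd2 (-1.015, adjusted p = 0.0025) still passed (edgeR). So did Ccnd1 (1.97, adjusted p = 0.00494) and Ccne1 (-3.04, adjusted p = 0.0197, edgeR).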

How the results depend on the processing

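The 12 pairwise and 4 interaction counts of called cell cycle genes were recomputed under each alternative, with edgeR unless another tool is named. Small intestinal CD31+ cells gave 3 genes for Rspo3 in place of 6 with only the libraries compared. Colonic CD31+ cells gave 5 for Rspo3 in place of 3 with limma voom. Colonic CD31- cells gave 7 for Rspo3 in place of 4 with DESeq2 and 1 with only the libraries compared. Colon against small intestine gave, in CD31+ Rspo3+ cells, 2 in place of 1 under all 5 other settings. In CD31+ Rspo3- cells it gave 5 with DESeq2, 5 with voom and 2 without the filter, in place of 1. In CD31- Rspo3+ cells it gave 9 with DESeq2 and 1 without the filter, and in CD31- Rspo3- cells 1 without the filter, each in place of 2. The interaction counts became 0 in place of 2 for tissue in CD31+ cells with only the libraries compared, 3 with DESeq2 and 0 with voom in place of 1 for tissue in CD31- cells, and 8 with DESeq2 in place of 5 for the small intestinal gate. The causes were not tested.

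Leaving out 1 library gave, for Rspo3, 4 to 8 genes in small intestinal CD31+ cells, 4 to 8 in small intestinal CD31-, 2 to 3 in colonic CD31+ and 2 to 6 in colonic CD31- cells. For CD31 it gave 10 to 17 and 8 to 10 in small intestinal Rspo3+ and Rspo3- cells, and 5 to 9 and 8 to 11 in colonic Rspo3+ and Rspo3- cells. For tissue it gave 1 to 1 in CD31+ Rspo3+, 1 to 4 in CD31+ Rspo3-, 0 to 6 in CD31- Rspo3+ and 0 to 2 in CD31- Rspo3- cells. For the interactions it gave 1 to 3 and 0 to 2 between tissues, and 4 to 6 and 4 to 7 between gates. Cenpa in colonic CD31+ against CD31- Rspo3+ cells ran from -0.69 to 1.73 (-0.23 with all libraries) and was called with the opposite sign without library 3 of the CD31- group (adjusted p = 0.000616).

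Counts over all genes moved by more than 1.5 times in several settings. With DESeq2 the tissue comparisons gave 1816 in place of 1209 genes in CD31+ Rspo3+, 1531 in place of 844 in CD31+ Rspo3- and 2077 in place of 1337 in CD31- Rspo3+ cells. The tissue interaction in CD31+ cells gave 809 with DESeq2 in place of 367. With only the libraries compared, Rspo3 in colonic CD31- cells gave 1152 in place of 1741 genes, and tissue in CD31+ Rspo3- cells 320 in place of 844. Without small intestinal CD31- Rspo3- library 3, the tissue comparison in CD31- Rspo3- cells gave 1966 in place of 3353, and the tissue interaction in CD31- cells 841 in place of 1597. Summed levels in CPM in place of TPM, each over its mean, moved by more than 1 SD for 8 of 24 group values. DESeq2 size factors moved the median of all genes from 0.11 to 0.00 for Rspo3 in small intestinal CD31- cells. No paired analysis was possible because the column names carry no replicate number.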
